A study of Ovis aries with 6 samples.

Results

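Low-methylated regions (LMRs) are short stretches of the genome in which CpG methylation dips to an intermediate level. The regions described here are the LMRs that the authors listed for lamb perirenal fat and that share no base with any LMR or unmethylated region (UMR) of their fetal lists. There were 26223 such lamb-only LMRs on autosomes 1 to 26, or 25.3% of the 103520 autosomal LMRs of the lamb list, and they covered 21.2 Mb. Of the remaining lamb LMRs, 74769 overlapped a fetal LMR and are called shared LMRs below, and 2528 overlapped a fetal UMR and no fetal LMR. The fetal list held 31855 of 108524 LMRs, or 29.4%, with no lamb counterpart, called fetal-only LMRs.

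Perirenal fat, which surrounds the kidney, was taken from pure bred Merino sheep, all labelled wild type and given no treatment. There were 3 fetuses of 132 days post conception (term is 150 days), whose fat is labelled brown, and 3 lambs, whose fat is labelled white. The lambs' age is 89 days by the sample labels but 80 days by the design text. DNA of each animal was sequenced after bisulfite conversion, which leaves methylated cytosines readable as C, so the level of a CpG is the percentage of its covering reads that show methylation. The animals' tags end in TV before birth and in VEH after it, and what the tags mean cannot be told apart from stage.

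LMRs are known as CpG-poor, mostly distal elements. Many are enhancers, where bound transcription factors keep methylation low, whereas UMRs are CpG-rich and hold most promoters of active or poised genes. Brown adipocytes make heat in the newborn, and white adipocytes store lipid. In bulk tissue a level between the extremes averages over cells, so fewer cells with an unmethylated site and partial methylation in every cell cannot be told apart. The labelled fat types were not checked against marker genes, because no gene annotation of the build of these files, Oar_v3.1, was used here.

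Reads covering CpG positions, summed over positions, ranged from 136938075 to 209550245 per animal. An autosomal CpG was covered by 5.22 to 8.00 reads on average, and 24.7% of the autosomal CpGs reached 5 or more reads in all 6 animals. Levels below are methylated over covering reads summed over such CpGs, unless all reads are named. Across all autosomal CpGs the level was 71.2% ± 0.107 in fetal animals and 71.9% ± 1.05 in lambs (SD, n = 3 each), with lamb 2 highest at 72.9%.

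Lamb-only LMRs were small and held few CpGs. Their median length was 562 bases, with quartiles of 300 and 1029 bases, against a median of 599 bases in shared LMRs and 536 bases in fetal-only LMRs. The median number of CpG positions was 6 in lamb-only, 8 in shared and 6 in fetal-only LMRs. No listed LMR of these classes held fewer than 5 CpGs, and 43.8% of the lamb-only LMRs held exactly 5, as did 15.7% of the shared and 42.3% of the fetal-only LMRs. At the other end, 11.0% of the lamb-only and 41.5% of the shared LMRs held 10 or more CpGs, and the largest number was 29 in each class. CpG density was lower as well, at a median of 1.10 CpGs per 100 bases in lamb-only LMRs against 1.60 in shared LMRs. Of the edges of lamb-only LMRs 97.1% lay within 1.5 bases of the midpoint between neighbouring CpGs, so a length runs past the outermost CpGs and depends on how far apart these are. The lists hold 1 set of regions per stage, so these shapes carry no replicate error and were not tested.

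They also lay farther from UMRs than the shared LMRs did. The median distance from the edge of a lamb-only LMR to the nearest UMR of either stage was 53670 bases, against 31517 bases for shared and 50701 bases for fetal-only LMRs. Within 1 kb of a UMR lay 3.06% of the lamb-only LMRs, close to the 3.29% of the shared ones. Beyond 100 kb lay 36.7%, against 24.5% of the shared and 35.6% of the fetal-only LMRs. The gap was present at equal CpG number. Among regions of exactly 5 CpGs the median distance was 57925 bases in lamb-only and 44118 bases in shared LMRs, and among regions of 10 to 19 CpGs it was 43870 and 25611 bases. In shared LMRs the distance shrank with CpG number to 17366 bases at 20 to 29 CpGs, where the 266 lamb-only LMRs were at 44083 bases. Fetal-only LMRs were at 52534 bases with 5 CpGs, 45592 with 10 to 19 and 46253 with 20 to 29. The larger distance was thus not particular to the lamb-only class.

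**Figure D1:**
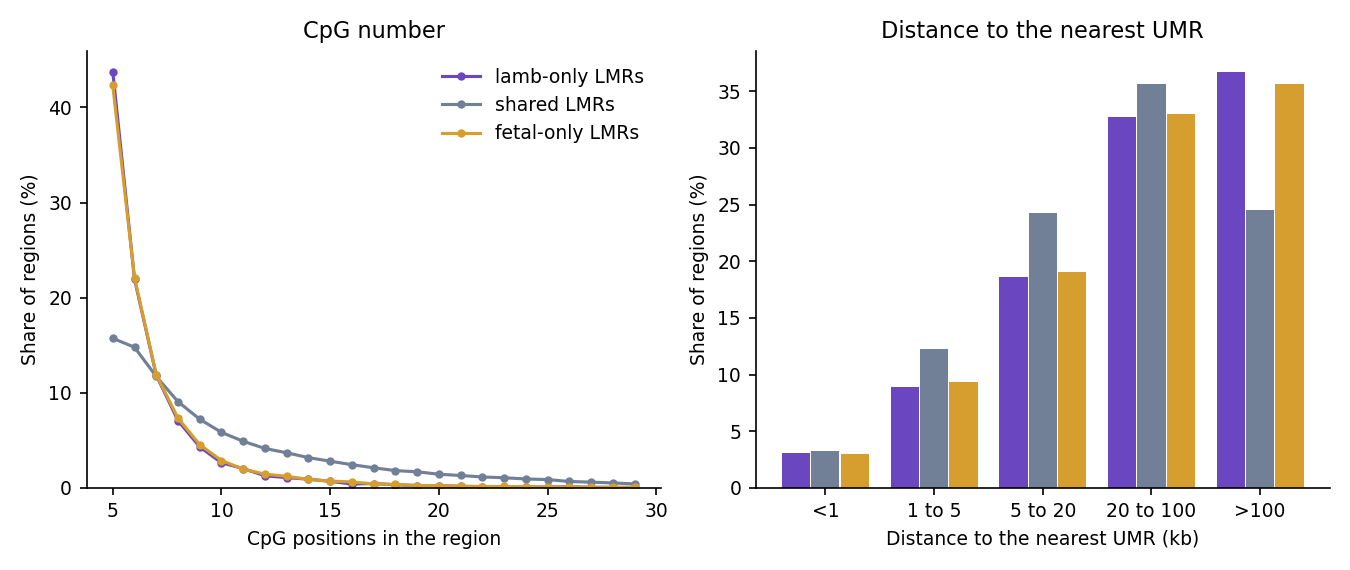
Left, share of the regions of each class (y axis, percent) by the number of CpG positions they hold (x axis); right, share of the regions (y axis, percent) by distance to the nearest UMR in kb (x axis). Lamb-only and fetal-only LMRs nearly coincide on the left, with 43.8% and 42.3% at 5 CpGs. Beyond 100 kb lie 36.7% of the lamb-only LMRs, against 24.5% of the shared and 35.6% of the fetal-only ones.

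Lamb-only LMRs were found on every autosome. They made up from 20.3% of the lamb LMRs on chromosome 11 to 33.2% on chromosome 6. Fetal-only LMRs followed a like order, with their lowest share, 24.5%, also on chromosome 11 and their highest, 35.3%, also on chromosome 6. Per 100000 CpG positions there were from 94.4 lamb-only LMRs on chromosome 7 to 120 on chromosome 6.

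The name of these regions refers to the lists and not to an absence of the dip before birth. Inside them, fetal animals 1, 2 and 3 had levels of 48.7%, 49.3% and 48.0%. Lambs 1, 2 and 3 had 38.8%, 39.8% and 39.6%. Each lamb was below each fetal animal, and the gap between the stages was wider than the spread within either. The means were 48.7% ± 0.636 and 39.4% ± 0.511 (SD, n = 3 each), so that lambs minus fetal animals was -9.29 percentage points. Few CpGs reached at least 10 reads in each animal, and only 25 lamb-only LMRs held 3 or more of them. At all such CpGs the difference was -4.35 points, with an SD of up to 2.74 points within a stage. Both lists were made from the methylation of these same 6 animals, by a cut-off that is not known here, so this difference is not independent of the choice of regions and is given as a description without a test. Shared LMRs were lower than lamb-only LMRs in every animal, at 27.57% to 28.98% before birth and 27.94% to 28.97% after it. Fetal-only LMRs had nearly the opposite values, 38.5% ± 1.33 in fetal animals and 49.1% ± 1.31 in lambs (SD, n = 3 each).

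The dip was measured against the flanks, the CpGs 500 to 2000 bases from either edge and outside every UMR, LMR and DNA methylation valley (DMV, a long unmethylated stretch) of both stages. The flanks of lamb-only LMRs had levels of 78.3%, 78.7% and 78.6% in fetal animals 1, 2 and 3. The lambs, in the same order, had 77.9%, 79.9% and 79.1%. The stages overlapped there. Subtracting the level inside gave a dip of 29.8 points ± 0.616 in fetal animals and 39.6 points ± 0.491 in lambs (SD, n = 3 each). The regions listed for lambs alone thus had a dip in each fetal animal too, of 29.4 to 30.5 points against 39.1 to 40.1 points in the lambs. In shared LMRs the dip was 51.1 points ± 0.687 in fetal animals and 51.5 points ± 0.896 in lambs (SD, n = 3 each). In fetal-only LMRs it was 39.9 points ± 1.25 in fetal animals and 29.9 points ± 0.946 in lambs (SD, n = 3 each).

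**Figure D2:**
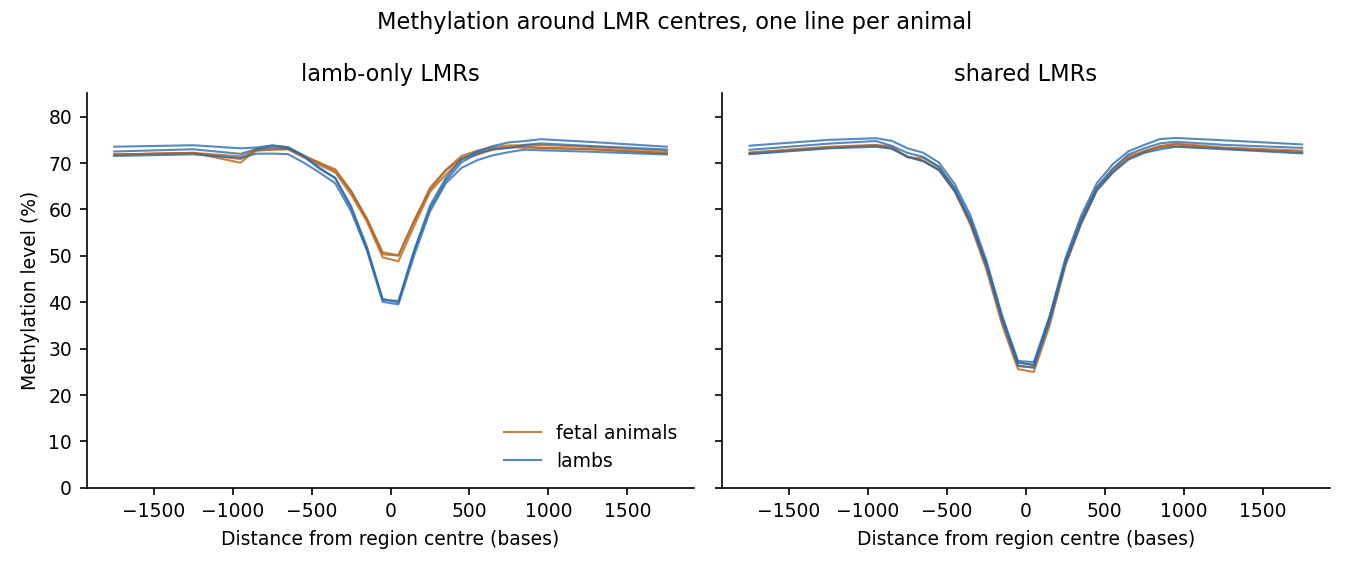
Methylation level (y axis, percent) by distance from the centre of the region in bases (x axis), with a line for each of the 6 animals, in lamb-only LMRs on the left and in shared LMRs on the right. At the centre of lamb-only LMRs the lambs lie near 40% and the fetal animals near 50%, while in shared LMRs all 6 lines run together.

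The flanks themselves did not separate the stages. The lamb minus fetal difference over the flank was 0.452 points (exact permutation test, two-sided, p = 0.5, where 3 animals against 3 cannot go below 0.1). By distance it was 0.407 points at 500 to 1000 bases, 0.477 at 1000 to 2000 and 0.396 at 2000 to 5000 bases. The exact permutation p was 0.6, 0.5 and 0.6, or 0.6 for each after Benjamini-Hochberg adjustment over the 3 distances. With minimums of 1 and 10 reads the flank difference was 0.170 and 1.37 points. Without lamb 2 it was -0.000464 points, and without lamb 1 it was 0.978 points (exact permutation p = 0.1, the smallest that 3 against 2 allows). Nearer to the edge, where the lamb levels themselves set the boundary, the difference was -2.89 points within 100 bases and -0.476 points at 100 to 250 bases, given without a test.

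Around lamb-only LMRs the background was slightly lower than around shared LMRs in both stages. The flank level of lamb-only minus that of shared LMRs was -1.002 to -0.789 points in fetal animals and -0.946 to -0.938 points in lambs, below 0 in 6 of 6 animals (exact sign-flip permutation test over animals, two-sided, p = 0.03125, the smallest that 6 animals allow, and the same after adjustment over 2 tests). The sign-flip test was added after seeing the data, and 6 values of 1 sign always give its smallest p, so it is a description. The lamb minus fetal difference of the gap between the 2 flank levels was -0.0456 points (exact permutation p = 0.7). Fetal-only LMRs had the lower flank as well, at 78.4% ± 0.178 in fetal animals and 79.0% ± 1.00 in lambs, against 79.4% ± 0.120 and 79.9% ± 0.982 in shared LMRs (SD, n = 3 each), so the lower background was not particular to the lamb-only class. Where classes lie near each other their flanks share CpGs.

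**Figure D3:**
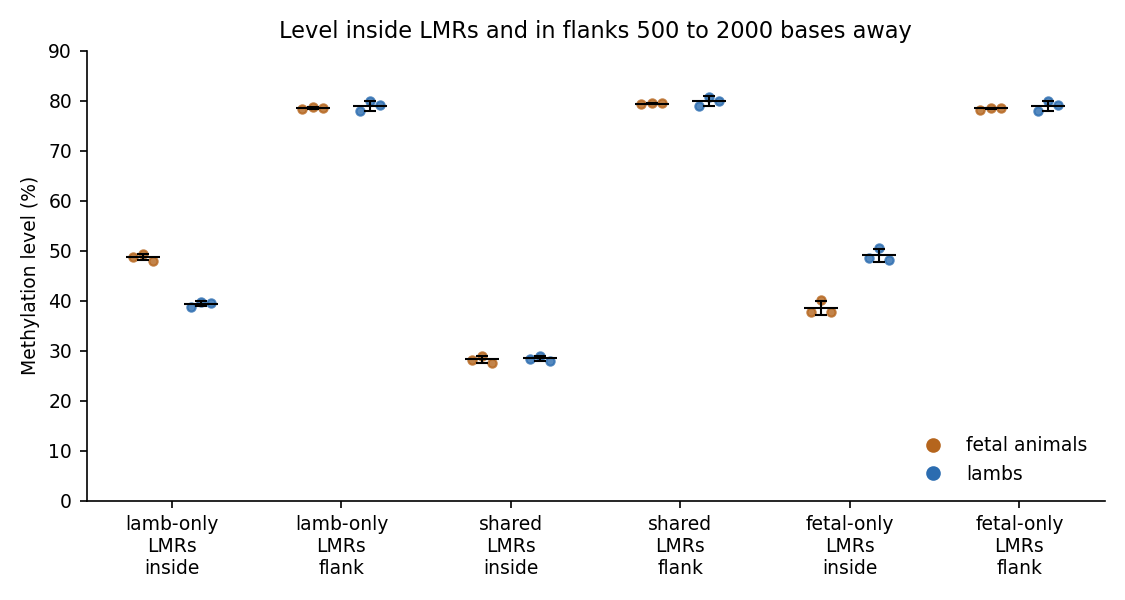
Methylation level (y axis, percent) of each animal inside the regions and in their flanks, by class of region (x axis), with points for animals and black bars for the mean and SD of 3 animals. Inside lamb-only LMRs the lambs (38.8% to 39.8%) lie below the fetal animals (48.0% to 49.3%), and the flanks of all classes lie between 77.9% and 80.8%.

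Sequencing depth inside these regions was close to the autosomal average in both stages. A CpG inside lamb-only LMRs was covered 1.01 ± 0.0100 times as often as an average autosomal CpG in fetal animals and 1.02 ± 0.00756 times in lambs (SD, n = 3 each). Against shared LMRs the coverage per CpG was lower in 6 of 6 animals, with ratios of 0.843 to 0.914. The exact sign-flip permutation p was 0.03125, the same after adjustment over 2 tests. It too is a description, since the test was added after seeing the data. Fetal-only LMRs were close to lamb-only LMRs in coverage, at 1.00 ± 0.0145 times the autosomal average in fetal animals and 1.03 ± 0.00532 in lambs. Shared LMRs had 1.17 ± 0.0326 and 1.13 ± 0.0108 (SD, n = 3 each). With fewer CpGs as well, a lamb-only LMR had a median of 39.7 reads per animal summed over its CpGs, against 60.7 in shared LMRs. A read is counted at each CpG it covers, so separate reads are fewer.

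Region by region, most lamb-only LMRs were below 50% in the pooled reads of both stages. A line at 50% is used because 97.8% of them lay under it in the pooled reads of the lambs, and 98.1% of the fetal-only LMRs in those of the fetal animals; the cut-off of the authors' lists is not stated in the sources read here. Over all reads, the pooled fetal level was under 50% in 15094 of the 26223 lamb-only LMRs, or 57.6%, with a median of 48.2% and quartiles of 42.2% and 53.9%. The pooled lamb level had a median of 38.1% and quartiles of 33.6% and 42.0%. Single animals were less uniform in the 18719 regions with at least 20 reads in each animal. There all 3 fetal animals were under 50% in 23.4%, 2 of 3 in 32.6% and none in 14.3%. All 3 lambs were under it in 65.9% and 2 of 3 in 29.8%. The difference per region had a median of -9.97 points. It was under 10 points in size in 13003 regions, or 49.6%, and below 0, with the lower level in lambs, in 23853 regions, or 91.0%. In shared LMRs the shares were 85.7% and 49.7%.

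Large losses were found in a minority of the lamb-only LMRs. A fall of at least 20 points was found in 3181 of them, or 12.1%, and of at least 30 points in 514, or 1.96%. In shared LMRs these shares were 0.330% and 0.0134%. The lists rest on the same contrast, so nothing is read from the gap between the classes. The pooled fetal level was over 70% in 343 of them, or 1.31%. These 343 had a median of 42.5% in lambs, a median of 6 CpGs and 32.5 reads per animal, against 40.5 reads in the 10360 regions with a fetal level of 40% to 50%.

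**Figure D4:**
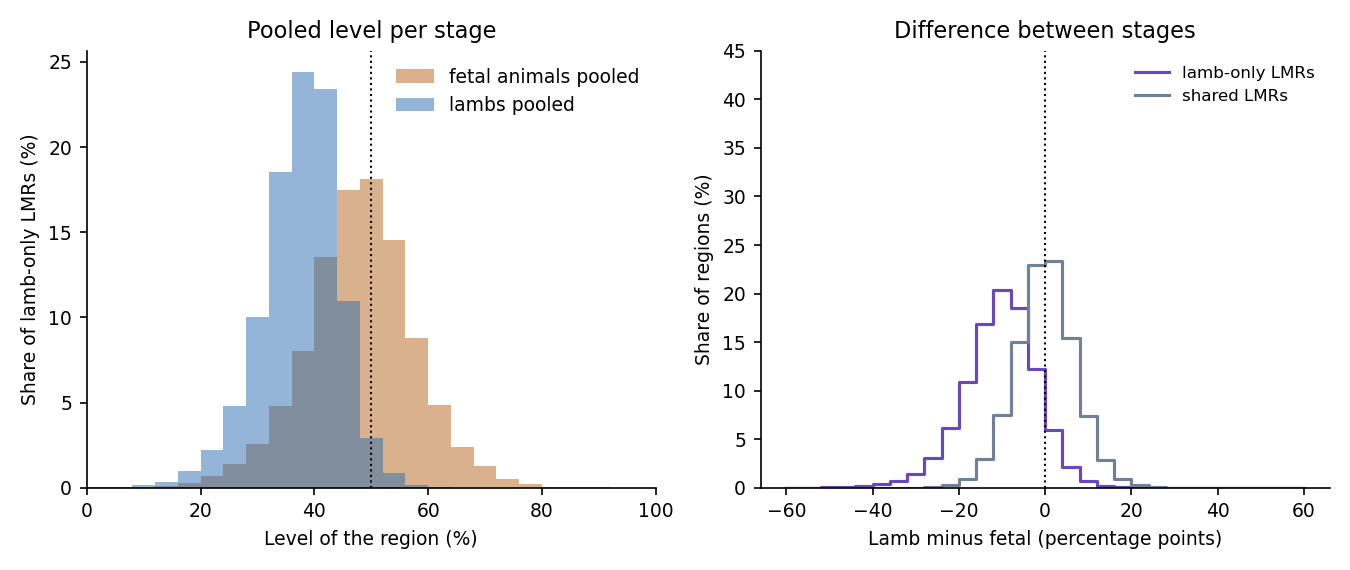
Left, share of lamb-only LMRs (y axis, percent) by their level in the pooled reads of each stage (x axis, percent), with a dotted line at 50%; right, share of lamb-only and of shared LMRs (y axis, percent) by the lamb minus fetal difference in percentage points (x axis). The fetal values reach to both sides of the line, with 57.6% of the regions under it, and the differences of lamb-only LMRs centre on -9.97 points.

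The dip was also seen in single animals. In 18396 lamb-only LMRs every animal had at least 20 reads inside and 20 in the local flank, and a dip of at least 20 points against that flank was counted per animal. All 3 lambs showed it in 77.2% of these regions and 2 of 3 in 16.7%. All 3 fetal animals showed it in 46.8%, 2 of 3 in 27.5% and none in 8.71%. In shared LMRs all 3 lambs showed it in 91.7% and all 3 fetal animals in 89.3%. Across the 3 animals of a stage the SD of a region's level had a median of 8.28 points before birth and 8.08 points after it (18719 regions with 20 reads inside). The median binomial SD of an animal was 7.45 points, with each counted read taken as separate. These are unlike measures, because the SD of 3 animals more often falls below than above the true SD. Counts of animals per region thus rest on noisy values.

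**Figure D5:**
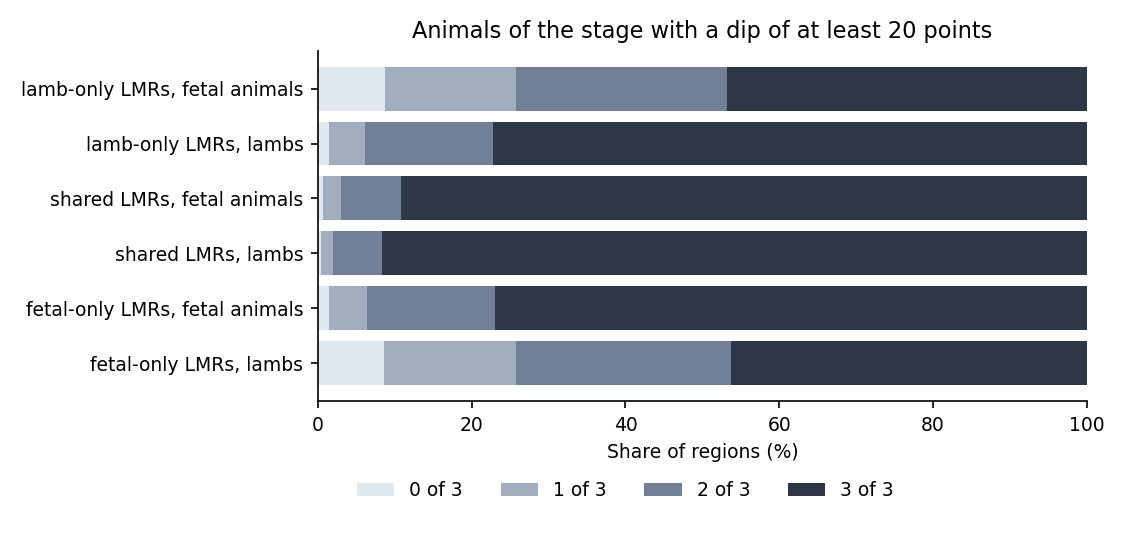
Share of regions (x axis, percent) in which 0, 1, 2 or 3 of the 3 animals of a stage had a dip of at least 20 points against the local flank, by class and stage (y axis). The darkest part, all 3 animals, takes 46.8% of the lamb-only LMRs in fetal animals and 77.2% in lambs.

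Single CpGs inside lamb-only LMRs were mostly intermediate. Of the 145292 CpGs with at least 10 reads in each stage, 83.7% were between 20% and 80% in pooled fetal reads and 81.2% in pooled lamb reads. Those under 20% made up 10.2% in fetal and 16.97% in lamb reads, and those over 80% made up 6.07% and 1.83%. In shared LMRs 38.1% of the CpGs were under 20% in fetal and 35.4% in lamb reads, so CpGs of low methylation made up more of those regions in both stages. With 10 reads a single CpG is known only roughly, which widens these distributions.

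The size of the difference varied with the shape of the region. In lamb-only LMRs of 5 to 9 CpGs, which are 89.0% of them, the level was 48.0% ± 0.658 in fetal animals and 39.2% ± 0.570 in lambs, a difference of -8.81 points. In the 2628 regions of 10 to 19 CpGs it was 51.7% ± 0.782 and 40.2% ± 0.181, or -11.5 points, and in the 266 of 20 or more CpGs 53.5% ± 2.24 and 40.9% ± 0.686, or -12.6 points (SD, n = 3 each). The regions with more CpGs thus stood higher in fetal animals, while the lamb level moved less. By length the difference went the other way, from -10.7 points in regions under 300 bases to -6.19 points in those of 2 kb or more. Fetal-only LMRs showed these trends with the stages exchanged, so they were not particular to the lamb-only class. By the same CpG numbers their difference was 10.2, 12.5 and 12.5 points, with lamb levels of 48.4%, 52.1% and 53.8%. By length it went from 11.9 points under 300 bases to 7.40 points at 2 kb or more.

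The difference varied less with distance to a UMR. The difference was -9.35 points within 1 kb of a UMR, -10.2 at 1 to 5 kb, -9.83 at 5 to 20 kb, -9.43 at 20 to 100 kb and -8.50 points beyond 100 kb. It was present on each chromosome, where it ran from -10.7 points on chromosome 19 to -8.19 points on chromosome 5. On 26 of 26 chromosomes every lamb was below every fetal animal. These strata were not tested, for the reason given above.

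Most lamb-only LMRs had no fetal LMR or UMR within 1000 bases, and 16.6% had such a neighbour. The nearest fetal LMR or UMR was at a median of 5001 bases, 9.26% of the lamb-only LMRs lay within 500 bases of one, and 4.15% within 200 bases. The 268 just inside the rule, under 50 bases from a fetal region, were at 49.3% ± 1.64 in fetal animals and 39.7% ± 0.425 in lambs. The 471 lamb LMRs just outside it, which share under 50 bases with a fetal region, were at 47.4% ± 2.07 and 41.1% ± 0.201 (SD, n = 3 each).

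Few lamb-only LMRs had enough reads for a fit of single regions, and 1 passed its threshold. For these regions the fit compares the stages in the same animals that the lists were made from, so its counts are descriptions and no p-value of a lamb-only LMR is given. The fit covered all 78994 autosomal UMRs and LMRs of both stages with at least 3 CpGs of 5 reads or more in each animal, by a quasi-binomial model of methylated against unmethylated reads with limma's moderation of the dispersion. A region was called at a Benjamini-Hochberg adjusted p under 0.05 and at least 10 points of difference. Of the lamb-only LMRs 6951, or 26.5%, had enough CpGs, 10943 had 1 or 2 and 8329 had none. The untested ones were longer, with a median of 619 against 462 bases, and farther from a UMR, with 62954 against 37697 bases, but their pooled levels were close, at 48.1% and 38.1% against 48.4% and 38.2%. Of the tested lamb-only LMRs 1, or 0.0144%, was called lower in lambs, and it was the only region called lower among all tested (0.00127%). None was called higher, where the share of all tested regions was 0.00253%. At an unadjusted p under 0.05, 1301 lamb-only LMRs, or 18.7%, were lower in lambs (all tested regions: 4.1%). Another 6, or 0.0863%, were higher (all tested regions: 7.15%). Every lamb was below every fetal animal in 1660, or 23.9% (all tested regions: 6.15%), and above in 35, or 0.504% (all tested regions: 9.8%). The mean was lower in lambs in 6081, or 87.5% (all tested regions: 43.6%). Nothing is read from these shares, since the lists rest on the same contrast.

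The called region lies on chromosome 7 from 97896783 to 97897284, 41648 bases from the nearest UMR, and overlaps a differentially methylated region (DMR) of the authors' hypo list. Its level was 68.3%, 66.3% and 64.1% in the fetal animals against 36.4%, 27.1% and 19.5% in the lambs (1 to 3 in order), over 12 of its 14 CpGs and 118 reads per animal. The stages did not overlap, and lamb 1 was the highest of the lambs. The difference was -38.6 points, and between -43.0 and -34.5 points when 1 animal was left out. The region was not called without any 1 of the 6 animals. Among lamb-only LMRs, limma on log2 ratios of methylated to unmethylated reads called 0, whereas edgeR's quasi-likelihood test called 1. Over all tested regions limma called 0 and edgeR 5.

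Of the authors' 496 autosomal hypo DMRs, 87, or 17.5%, touched a lamb-only LMR, and of the 526 hyper DMRs 0 did. The lamb-only LMRs that overlap a hypo DMR were 0.332% of the class, against 0.0829% of the shared and 0.00314% of the fetal-only LMRs. A hyper DMR overlapped 0.0923% of the shared and 0.352% of the fetal-only LMRs. In each class nearly all LMRs thus lay outside the authors' DMRs. Among lamb-only LMRs the share in a hypo DMR was 0.127% at a fetal level under 40% and 0.0676% at 40% to 50%. It was 0.462% at 50% to 60%, 1.13% at 60% to 70% and 2.92% over 70%. The lists come from the same animals and are not independent of each other. Besides the called region, the 2 with the largest differences among tested regions that overlap hypo DMRs were the following. On chromosome 10 from 74880786 to 74880974, a region of 10 CpGs 5235 bases from a UMR, the level was 82.6%, 68.8% and 81.0% before birth against 21.4%, 26.1% and 45.5% in lambs. On chromosome 19 from 15210208 to 15210398 it was 50%, 80% and 52.6% before birth against 20.8%, 14.3% and 32% in lambs, over 23.5 reads per animal. In both regions the lambs stayed below the fetal animals, with differences of -46.4 and -38.5 points. Neither was called.

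The largest differences among tested regions without overlap between the stages rested on 3 or 4 usable CpGs each. The largest, on chromosome 4 from 4028239 to 4028599, was at 74.4%, 94.7% and 96.2% before birth against 48.3%, 31.8% and 25.8% in lambs, a difference of -53.1 points, or -36.0 points over all reads. On chromosome 6 from 45835786 to 45836420 the level was 84.2%, 87.5% and 96.2% before birth against 54.3%, 35% and 56% in lambs, a difference of -40.8 points and -42.7 over all reads. These 2 are regions of 5 CpGs that stood high in fetal fat at the usable CpGs. Over all reads the fetal animals were at 52.9%, 88.6% and 82.1% in the region on chromosome 4. The region on chromosome 3 from 199087006 to 199088090 was at 85.7%, 80% and 83.3% before birth against 48.1%, 45.2% and 36.7% in lambs, a difference of -39.7 points over 4 of its 9 CpGs. Over all reads it was -26.0 points.

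Of the other 4 of these 8, some changed with the reads used. On chromosome 10 from 24537119 to 24538434 the difference was -45.5 points over 3 of its 10 CpGs but -12.9 points with a minimum of 3 reads. On chromosome 11 from 13677819 to 13678430 it was -39.6 points, and -23.7 with a minimum of 1 read. On chromosome 15 from 41825368 to 41825551 the lambs spread from 12.5% to 67.5% around a difference of -41.9 points. On chromosome 11 from 58427395 to 58427436, a region of 42 bases, it was -40.0 points, and -35.1 over all reads. None of the 8 was called.

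Some lamb-only LMRs had the higher level in lambs at the usable CpGs. The largest such difference without overlap, 23.1 points, was on chromosome 9 from 55754056 to 55754596, at 31.2%, 17.6% and 28.6% before birth against 36.7%, 50% and 60% in lambs. Over all reads it was 11.3 points. The next were 20.8 points on chromosome 24 from 14455095 to 14455553, and 19.4 and 19.2 points on chromosome 1 from 70618821 to 70619884 and from 195867466 to 195868584. Over all reads these 3 were at 10.4, 6.55 and 6.92 points. Without lamb 1 the first region of chromosome 1 was at 12.96 points, and without lamb 2 the second was at 12.6 points. None of the 4 was called.

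The extremes of shape were thinly covered. The most CpGs in a lamb-only LMR were 29, held by 11 regions, and of these the first 3 in genome order had 1 or 2 usable CpGs. Over all reads, the one on chromosome 2 from 121889911 to 121895996 differed by -19.5 points. The 2 on chromosome 9, from 7345156 to 7350711 and from 80813600 to 80814565, differed by -7.53 and -19.6 points. The 3 farthest from any UMR lie on chromosome 5, from 101806363 to 101806418, from 101769330 to 101769726 and from 101758844 to 101760389, each with 5 CpGs. Over all reads they differed by -22.0, -8.31 and -10.0 points, the first over 9.83 reads per animal.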

How the data were processed

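For every CpG position the authors deposited unnormalized counts of methylated reads and of covering reads per animal, per the file headers, and their region lists hold positions alone. The build is Oar_v3.1 by the design text. BWA, Picard, Oar_v3.1 and hg19 stand in the submitters' processing notes without a role. The callers of methylation and of regions are not stated in those sources. Contig positions (431716) were left out. Columns were matched to animals by sample description. Replicate numbers name separate animals.

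Levels, flanks, dips and the quasi-binomial fit were computed in Python 3.11.15 (numpy 2.4.6, pandas 2.3.3, scipy 1.17.1). limma 3.58.1 and edgeR 4.0.16 ran under R 4.3.3. The quasi-binomial test was also run on simulated counts, and the outcome is not reported here. The prior dispersion was 1.43 with 8.99 degrees of freedom, as limma's squeezeVar gave. The members, classes and tests were chosen with earlier results of these data known. Named regions are the 8 largest decreases and 4 largest increases among tested regions without overlap between stages, the 3 largest decreases in hypo DMRs, called regions, the 3 with most CpGs (ties in genome order) and the 3 farthest from a UMR. The 2 tests of lamb-only against shared LMRs within animals were added after seeing the data. No molecular identifiers are named in the labels, so binomial SDs cover counting error alone. Genes, sequences and motifs were not analysed here. Alternatives were other coverage minimums, leaving out each animal, CpGs of high coverage or members near fetal regions, equal weight per CpG, another flank, other thresholds, limma, edgeR and the replicate number as a block.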

Additional observations from a re-analysis of the deposited data

How the results depend on the processing

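With minimums of 10 reads and 1 read the level difference inside lamb-only LMRs was -4.35 and -10.7 points, and the fetal dip 25.3 and 29.2 points. With 10 reads the lamb dip was 31.0 points. At 10 reads few CpGs were left, and the SD within a stage reached 2.74 points inside and 4.36 points for the lamb dip. Over members of at least 3 usable CpGs the difference inside was -10.3 points. Leaving out an animal gave -9.62 to -8.99 points inside, -0.000464 (without lamb 2) to 0.978 points in the flanks, and dips of 29.5 to 30.03 points in fetal animals and 39.3 to 39.8 in lambs. The 1 called region was 0 without any 1 animal (0 to 0) and 0 with 10 reads (25 regions tested). It was 0 with the replicate block, 0 with limma and 1 with edgeR, where over all tested regions limma called 0 and edgeR 5. With a minimum of 1 read it was 3 of 25894 lamb-only LMRs, a setting added after seeing the data for this count and the next. Every lamb was below every fetal animal in 1660 regions, or 23.9% of the tested lamb-only LMRs. At a minimum of 3 reads it was 4241 (22.1%), at 10 reads 2 (8%), and at 1 read 5743 (22.2%). Where 5 usable CpGs were required it was 601 (31.5%). These counts moved with the number tested. At the changed minimums the calls and these counts were not made over all regions. The rule without a 50% reciprocal overlap gave 38011 regions in place of 26223. Between animals of equal number, the correlation of deviations from the stage mean was -0.000421 to 0.00752 across all tested regions. Across lamb-only LMRs it was -0.0359 to 0.00902. Across all tested regions, only fetal animals 2 and 3 correlated best with the lamb of their number. Counting error adds to each deviation, so such small correlations cannot tell whether the numbers pair the animals. For the other changes the cause was not tested. Depth limits single regions: 26.5% of the lamb-only LMRs could be tested.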

Other observations

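Most lamb-only LMRs stood apart from others of their class, with a median of 50598 bases to the next lamb-only LMR. The nearest shared LMR was closer, at a median of 9158 bases. Joined across gaps of up to 10 kb, 1907 lamb-only LMRs, or 7.27%, fell into 571 runs of 3 or more. Members of these runs lay closer to a UMR than the others, at a median of 24845 against 56791 bases, and were shorter, at 373 against 577 bases. Over all reads they were at 50.2% ± 0.783 in fetal animals and 38.0% ± 0.573 in lambs, and the other lamb-only LMRs at 48.4% ± 0.662 and 37.6% ± 0.540 (SD, n = 3 each). The longest run held 7 regions on chromosome 3 from 1661532 to 1675702, at 54.7%, 47.9% and 51.4% before birth against 39.5%, 40.4% and 38.1% after it (animals 1 to 3 in order), over a mean of 4.68 reads per CpG and animal.

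With a minimum of 1 read, chosen after seeing the data, 3 of 25894 lamb-only LMRs passed the threshold of the fit. For these regions the fit is a description, as above. Beside the region on chromosome 7 these were on chromosome 10 from 18418746 to 18420669, at 59.7% ± 9.97 in fetal animals and 14.3% ± 4.57 in lambs (SD, n = 3 each), and on chromosome 19 from 36909634 to 36910605, with 25 CpGs, at 69.5% ± 7.55 and 40.5% ± 2.79 (SD, n = 3 per stage). Both were chosen after their values were seen.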
